A study of Mus musculus with 9 samples.

Results

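The aryl hydrocarbon receptor pathway was followed through 7 genes, taken as every row of the deposited table whose gene name is Ahr, Ahrr, Arnt, Cyp1a1, Cyp1a2, Cyp1b1 or Tiparp. Each name matched 1 row, so the set holds 7 of the 55468 genes in the table. Cyp1a1 varied most: it was at 10.6 FPKM in the library from mice returned to the normal diet after methionine deficiency and at 0.032 FPKM in the library from mice deficient in tryptophan and niacin. FPKM counts fragments per length of transcript and depth of library, so that levels of different genes can be compared.

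The aryl hydrocarbon receptor is a transcription factor held in the cytosol by chaperones until it binds a small molecule. Host enzymes, gut bacteria and plant foods make such ligands from tryptophan. The bound receptor enters the nucleus, pairs with Arnt and binds response elements with the core GCGTG at its target genes, among them the P450 enzymes that break ligands down and the inhibitors that end the signal. In the gut the receptor is known for maintaining intraepithelial and innate lymphocytes and the epithelial barrier.

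RNA came from the intestinal tract of mice, with 1 library for each of 9 conditions. At day 28, mice had been on a diet deficient in methionine (1K), in tryptophan and niacin (2K) or in all 3 nutrients (3K), or on the normal diet (R). At day 33, tissue came from mice that left each of those diets for the normal one at day 28 (1KR after 1K, 2KR after 2K and 3KR after 3K) or had the normal diet throughout (RR). All 8 of these conditions drank dextran sulfate sodium (DSS), which damages the lining of the gut, from day 18. Control mice (C) had the normal diet without DSS and were collected at day 34, so DSS and collection day cannot be told apart. The labels name no strain, sex, age, gut segment or number of mice behind a library. With 1 library per condition, no difference between 2 libraries has a replicate check, and each value below describes those libraries.

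The libraries held an estimated 14.2 M (3KR) to 31.1 M (2KR) fragments. All 10 epithelial markers, among them Epcam and Vil1, had at least 1 FPKM in every library. Their summed level was 3088 FPKM in 2K and 4584 FPKM in 3K, against 12870 FPKM in R. Muc2 gave 765.1, 1457 and 7863 FPKM of these sums. By the 2-fold rule given below, 6 of the 10 were lower in 2K than in R and 3 in 3K, and 0 were higher. Over all genes, 14.1% were lower in 2K and 13.4% in 3K. Transcripts of neighbouring organs stood out in the same libraries. Pancreatic acinar markers summed to 36843 FPKM in 2K and 46564 FPKM in 3K, against at most 25.8 FPKM elsewhere. The 12 liver markers summed to 33938 FPKM in 2K and to between 98.4 (1K) and 340.8 FPKM (C) elsewhere. The 8 measured stomach markers summed to 17840 FPKM in 2K and 57.8 FPKM in 3K, against at most 2.29 FPKM elsewhere. In bulk tissue, fewer cells of a type and less RNA per cell cannot be told apart, and what these differences in tissue makeup add to the values below was not tested except where a value is given.

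The promoters of the 5 target genes are shown because the response element core is the feature through which the receptor is known to reach them. RefSeq promoters (GRCm38.p6, 250 bases before to 50 bases after the start site, 5′ to 3′ on the gene's strand) were found for 6 of the 7 members, Ahr being the exception. Capitals mark GCGTG on either strand, so that a core on the opposite strand reads CACGC. The windows are chr9:57697363-57697662 on the plus strand for Cyp1a1, chr17:79715012-79715311 on the minus strand for Cyp1b1, chr9:57683606-57683905 on the minus strand for Cyp1a2, chr13:74292282-74292581 on the minus strand for Ahrr and chr3:65528197-65528496 on the plus strand for Tiparp.
Cyp1a1: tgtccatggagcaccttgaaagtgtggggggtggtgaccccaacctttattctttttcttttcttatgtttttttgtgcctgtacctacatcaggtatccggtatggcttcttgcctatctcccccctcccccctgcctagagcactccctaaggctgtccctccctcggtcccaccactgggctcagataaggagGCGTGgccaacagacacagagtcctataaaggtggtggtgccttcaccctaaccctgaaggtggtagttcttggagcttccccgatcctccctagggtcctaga
Cyp1b1: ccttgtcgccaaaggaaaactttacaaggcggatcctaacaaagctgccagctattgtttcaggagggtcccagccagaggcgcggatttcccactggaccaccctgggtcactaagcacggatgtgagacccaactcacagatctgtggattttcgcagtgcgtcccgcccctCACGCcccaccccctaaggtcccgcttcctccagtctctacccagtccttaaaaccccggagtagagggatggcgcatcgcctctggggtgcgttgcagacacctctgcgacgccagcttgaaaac
Cyp1a2: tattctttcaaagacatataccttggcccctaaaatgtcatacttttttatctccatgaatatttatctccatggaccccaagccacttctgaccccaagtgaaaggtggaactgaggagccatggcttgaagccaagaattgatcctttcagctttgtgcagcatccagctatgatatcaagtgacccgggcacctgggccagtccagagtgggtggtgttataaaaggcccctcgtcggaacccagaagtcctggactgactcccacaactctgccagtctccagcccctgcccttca
Ahrr: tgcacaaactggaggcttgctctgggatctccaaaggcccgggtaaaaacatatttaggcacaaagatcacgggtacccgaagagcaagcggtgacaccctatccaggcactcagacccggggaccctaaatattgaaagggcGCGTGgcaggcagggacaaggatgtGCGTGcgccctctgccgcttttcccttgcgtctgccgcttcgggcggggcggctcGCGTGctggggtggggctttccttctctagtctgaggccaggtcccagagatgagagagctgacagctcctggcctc
Tiparp: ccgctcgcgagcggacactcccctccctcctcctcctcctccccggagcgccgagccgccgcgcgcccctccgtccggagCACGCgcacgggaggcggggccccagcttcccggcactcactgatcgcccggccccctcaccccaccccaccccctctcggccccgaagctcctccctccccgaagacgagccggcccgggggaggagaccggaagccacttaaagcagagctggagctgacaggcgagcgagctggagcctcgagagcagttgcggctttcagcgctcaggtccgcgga

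Ahrr had 3 cores in this window, all on the gene's strand, and the nearest began 27 bases before the start site. Cyp1a1, Cyp1b1 and Tiparp had 1 core each, beginning 54, 76 and 170 bases before the start site, and Arnt also had 1. Cyp1a2 had none in the window. The capitals mark the base string alone: whether the receptor binds any of these cores was not tested, and sites more than 250 bases upstream lie outside the window. Of 27025 promoters of the same length, 32.5% held GCGTG on either strand and 3.96% held it at least 3 times, so a single core is common. The longer form TNGCGTG, which contains the core, was found in 5.12% of promoters and, among the members, in Ahrr alone.

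Ahr, the receptor itself (ENSMUSG00000019256, chromosome 12, 35497974 to 35535038, minus strand, GRCm38), varied little. Its level was 7.51, 6.63 and 6.62 FPKM in 1K, 2K and 3K, against 6.30 FPKM in R. At day 33 it was 9.42, 7.77 and 5.07 FPKM in 1KR, 2KR and 3KR, against 7.50 FPKM in RR, and it was 5.21 FPKM in C. The highest and lowest libraries, 1KR and 3KR, were 1.86-fold apart, and in none of 13 pairs of libraries was the gene 2-fold apart.

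Arnt, the partner that the receptor shares with the hypoxia factors (ENSMUSG00000015522, chromosome 3, 95434388 to 95497240, plus strand), was the most abundant member. It was at 21.5, 29.0 and 32.6 FPKM in 1K, 2K and 3K, against 23.0 FPKM in R. In 1KR, 2KR and 3KR it was at 18.8, 20.3 and 19.5 FPKM, against 19.8 FPKM in RR, and in C it was at 22.7 FPKM. The libraries 2K and 3K were thus the highest, and the 4 libraries of day 33 lay close together. The highest level was 1.73-fold above the lowest.

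**Figure D1:**
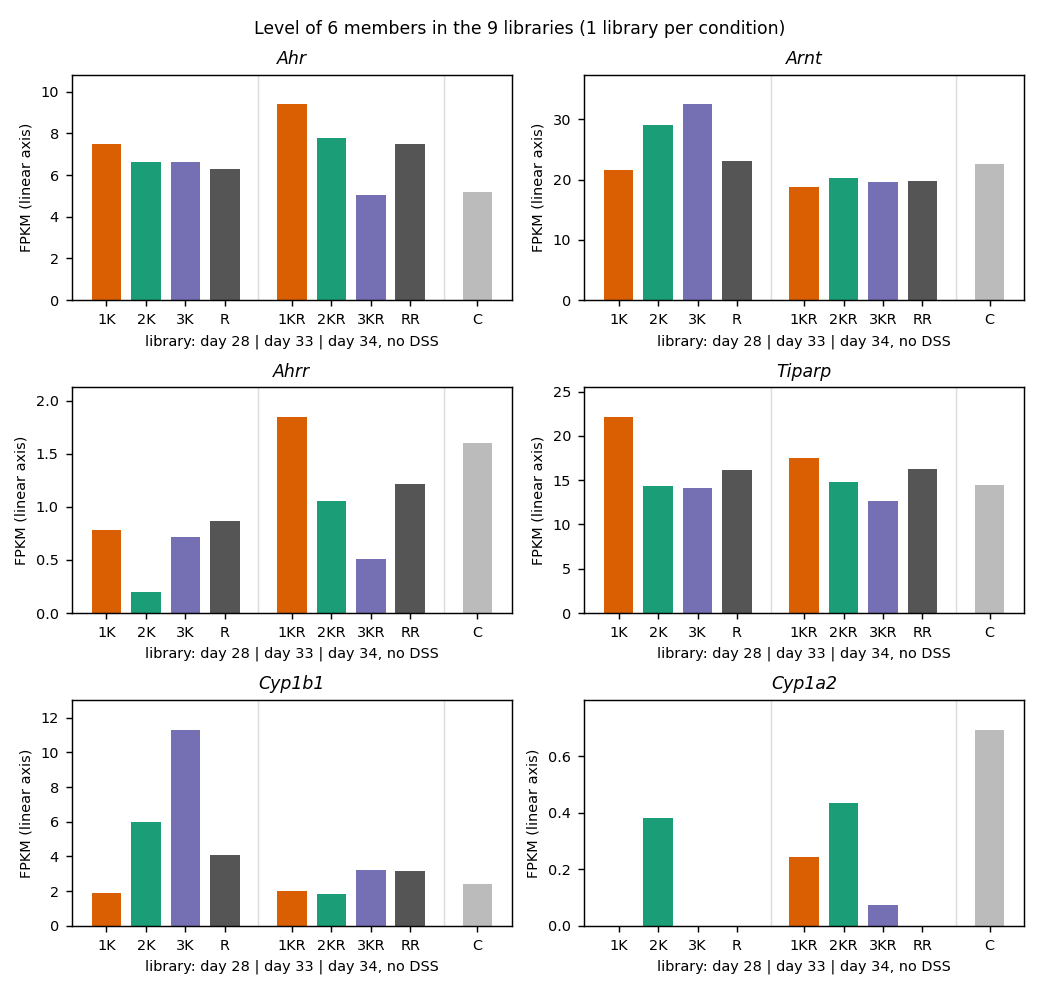
Level in FPKM, on a linear axis from 0, of 6 members in each of the 9 libraries; each bar is 1 library, without replicates. Ahr, Arnt and Tiparp stay within a 1.86-fold range, Cyp1b1 is highest in 3K at 11.3 FPKM and Cyp1a2 is listed at 0 in 4 libraries.

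Cyp1a1, a P450 that oxidises aryl hydrocarbons and tryptophan-derived ligands and is the textbook readout of receptor activity (ENSMUSG00000032315, chromosome 9, 57687928 to 57703824, plus strand), spanned a 332-fold range. At day 28 it was at 1.58 FPKM in 1K, 0.032 FPKM in 2K and 0.057 FPKM in 3K, against 0.209 FPKM in R. At day 33 it was at 10.6 FPKM in 1KR, 0.096 FPKM in 2KR and 0.766 FPKM in 3KR, against 1.34 FPKM in RR. In C it was at 0.342 FPKM. On each day the library with methionine deficiency alone up to day 28 was the highest. The library with tryptophan and niacin deficiency alone up to day 28 was the lowest. Each day 33 library was above its day 28 counterpart. For 2KR against 2K this rests on about 8 against 2 fragments, and the order of 2K and 3K on about 2 against 4, too few to settle either.

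Over both days there are 4 pairs of libraries that differ by tryptophan and niacin in the diet up to day 28. In the pairs of day 33 the deficient diet had ended at day 28. Cyp1a1 was lower with or after the deficient diet in all 4. It was 6.53-fold lower in 2K than in R, 27.7-fold lower in 3K than in 1K, 13.9-fold lower in 2KR than in RR and 13.9-fold lower in 3KR than in 1KR. In fragments, these levels correspond to about 2 in 2K against 16 in R, 4 in 3K against 94 in 1K, 8 in 2KR against 102 in RR and 29 in 3KR against 858 in 1KR. The 95% exact (Clopper-Pearson) intervals on those approximate fragments run from 1.53 to 58.2 for the 1st ratio, from 10.6 to 105 for the 2nd, from 6.85 to 33.3 for the 3rd and from 9.70 to 21.1 for the 4th. They cover counting error only, not the spread between mice.

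The 4 pairs that differ by methionine up to day 28 went the other way, each with more Cyp1a1 with or after the deficient diet. The gene was 7.55-fold higher in 1K than in R (interval 4.46 to 13.9), 7.93-fold higher in 1KR than in RR (6.46 to 9.84) and 7.98-fold higher in 3KR than in 2KR (3.53 to 20.1). Between 3K and 2K the ratio was 1.78, with an interval from 0.253 to 19.5, and no difference was detectable at this depth. The 4 ratios of a day come from the same 4 libraries, so they are not independent of each other.

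**Figure D2:**
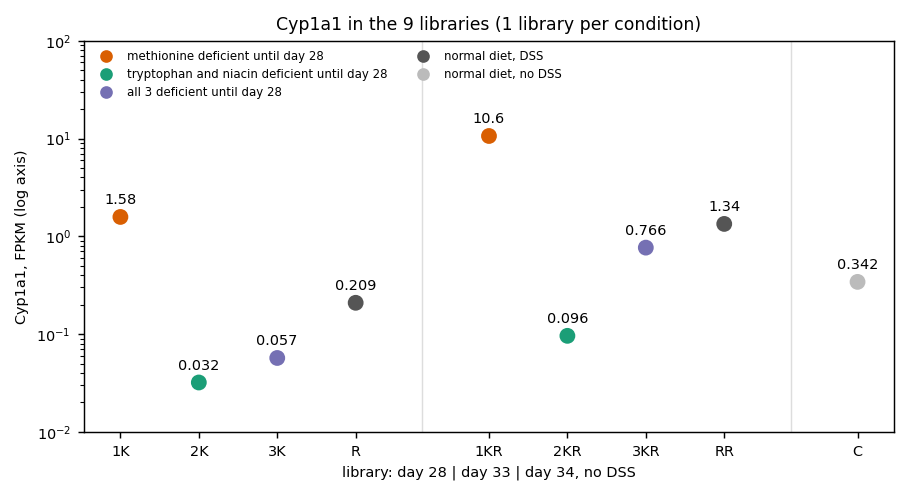
Cyp1a1 level in FPKM on a log axis in the 9 libraries; each point is 1 library and its label gives the value. On each day the library with methionine deficiency alone up to day 28 is the highest (1.58 and 10.6 FPKM). The library with tryptophan and niacin deficiency alone up to day 28 is the lowest (0.032 and 0.096 FPKM), in 2K on about 2 fragments against 4 in 3K.

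Markers of gut region and epithelium differed between the same libraries. The 7 proximal gut markers summed to 3844, 684.0 and 1448 FPKM in 1K, 2K and 3K, against 375.3 FPKM in R, and to 2750, 1906 and 189.4 FPKM in 1KR, 2KR and 3KR, against 2414 FPKM in RR. Like Cyp1a1, they were thus far higher in 1K than in R and far lower in 3KR than in 1KR. Unlike Cyp1a1, their sum was higher in 2K and 3K than in R, and in 1KR and 2KR it lay nearer to RR. Of the 7 markers, 5 were at least 2-fold higher and 1 lower in 2K than in R, and 3 were higher and 1 lower in 3K. Over all genes, 14.7% were higher and 14.1% lower in 2K, and 11.6% and 13.4% in 3K. The lower one was Lct, at 3.71 FPKM in 2K and 27.8 FPKM in 3K, against 161.8 FPKM in R. The part of the neighbouring organs' transcripts in these sums was not tested. Fabp1 gave much of the sum, at 2941 FPKM in 1K and 1295 FPKM in 3K, against 113.5 FPKM in R. At the 2-fold rule used below, 5 of the 6 above the floor were higher and 0 lower in 1K than in R. Over all genes, 7.17% were higher and 8.63% lower. In 3KR against RR, 0 of 6 were higher and 6 lower, against 11.4% and 9.73% of all genes.

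The 5 ileal markers summed to 547.1, 20.8 and 118.2 FPKM in 1K, 2K and 3K, against 2353 FPKM in R, and to 114.6, 371.9 and 891.7 FPKM in 1KR, 2KR and 3KR, against 216.3 FPKM in RR. Fabp6, a bile acid carrier of the ileum, was at 255.1 FPKM in 2KR against 2.90 FPKM in RR. The list was split there, with 2 of 5 at least 2-fold higher and 1 lower. Over all genes, 2.67% were higher and 3.67% lower. The lower ileal marker was Cubn, at 78.6 FPKM in 2KR against 181.5 FPKM in RR. The epithelial sum was 12185, 3088 and 4584 FPKM in 1K, 2K and 3K, against 12870 FPKM in R. In 1KR, 2KR and 3KR it was 8193, 8294 and 17632 FPKM, against 8462 FPKM in RR. Muc2 gave much of it, at 13510 FPKM in 3KR and 3452 FPKM in RR. Of the 10 markers, 1 was at least 2-fold higher and 1 lower in 3KR than in RR. Over all genes, 11.4% were higher and 9.73% lower. The part of gut region and epithelial content in the Cyp1a1 levels was not tested.

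DSS on the normal diet gave no single direction for Cyp1a1. The level was 0.209 FPKM in R (about 16 fragments), against 0.342 FPKM in C (about 24), a ratio of 0.611 with an interval from 0.302 to 1.20. It was 1.34 FPKM in RR, 3.92-fold above C (interval 2.51 to 6.43). Markers of gut region differ along with it: the proximal gut markers summed to 375.3 FPKM in R and 2414 FPKM in RR, against 244.4 FPKM in C, and the ileal markers to 2353 FPKM in R and 216.3 FPKM in RR, against 3871 FPKM in C. Clock genes, whose targets include many xenobiotic genes, summed to 351.6 FPKM in R and 353.8 FPKM in RR, against 123.4 FPKM in C. They did not all go the same way. Of 11, 7 were at least 2-fold higher and 2 lower than in C, in R and in RR alike. Over all genes, 4.43% were higher and 3.22% lower in R, and 6.71% and 5.81% in RR. Arntl was at 3.53 FPKM in R and 4.44 FPKM in RR, against 23.0 FPKM in C. Npas2 was at 6.54 and 6.46 FPKM, against 21.9 FPKM in C. The part of gut region and clock genes in the difference was not tested.

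Cyp1b1, the P450 of this family that is known mainly from stromal and vascular cells (ENSMUSG00000024087, chromosome 17, 79701537 to 79715061, minus strand), had another order. It was at 1.92, 6.01 and 11.3 FPKM in 1K, 2K and 3K, against 4.06 FPKM in R. In 1KR, 2KR and 3KR it was at 2.02, 1.82 and 3.24 FPKM, against 3.17 FPKM in RR, and in C it was at 2.42 FPKM. The libraries 3K and 2K were thus the highest of all 9, where Cyp1a1 was lowest. Cyp1b1 was 2.78-fold higher in 3K than in R and 5.88-fold higher in 3K than in 1K, and 3.49-fold lower in 3KR than in 3K.

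The summed level of endothelial markers was highest in the same libraries. The 8 genes summed to 135.4 FPKM in 3K and 89.3 FPKM in 2K, against 68.2 FPKM in R, and to between 49.9 (2KR) and 73.7 FPKM (C) in the other libraries. Pecam1 was at 33.0 FPKM in 3K and 16.4 FPKM in 2K, against 13.2 FPKM in R. Cdh5 was instead highest in 3KR, at 20.2 FPKM, against 18.3 FPKM in 3K, and Emcn was at 3.94 FPKM in 2K, against 4.33 FPKM in R. By the 2-fold rule given below, 4 of the 8 were higher and 0 lower in 3K than in R. In 2K, 0 were higher and 0 lower. Over all genes, 11.6% were higher and 13.4% lower in 3K, and 14.7% and 14.1% in 2K. Fibroblast markers were mixed: the 9 genes summed to 536.9 FPKM in 3K and 421.1 FPKM in 2K, against 634.8 FPKM in R, with Col3a1 at 110.9 and 93.0 FPKM, against 237.2 FPKM in R. Among them, Pdgfra was at 41.3 FPKM in 3K and 25.5 FPKM in 2K, against 20.5 FPKM in R, and Dcn and Pdgfrb were likewise highest in 3K of these 3 libraries. In 1K, where Cyp1b1 was at 1.92 FPKM against 4.06 FPKM in R, the list summed to 248.8 FPKM. The part of endothelial and fibroblast RNA in the Cyp1b1 levels was not tested.

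Cyp1a2, the hepatic P450 that also oxidises caffeine (ENSMUSG00000032310, chromosome 9, 57676937 to 57683703, minus strand), did not reach 1 FPKM in any library. It lies 4224 bases from Cyp1a1, in the opposite orientation. It was listed at 0 in 1K, 3K, R and RR, and was at 0.382 FPKM in 2K, 0.243 FPKM in 1KR, 0.436 FPKM in 2KR, 0.074 FPKM in 3KR and 0.694 FPKM in C. These values correspond to about 17, 14, 26, 2 and 35 fragments. In 2K, albumin (Alb) was at 15459 FPKM and Cyp2e1, another hepatic P450, at 178.1 FPKM, whereas C, with the highest Cyp1a2, had Alb at 167.1 FPKM.

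Ahrr, the repressor that competes with the receptor for Arnt and is itself a target (ENSMUSG00000021575, chromosome 13, 74211118 to 74292331, minus strand), was low throughout. It was at 0.78, 0.195 and 0.713 FPKM in 1K, 2K and 3K, against 0.87 FPKM in R. In 1KR, 2KR and 3KR it was at 1.85, 1.06 and 0.512 FPKM, against 1.21 FPKM in RR, and it was at 1.60 FPKM in C. As for Cyp1a1, 1KR was the highest and 2K the lowest of the 9 libraries. In the values as deposited, Ahrr was also lower with or after the diet deficient in tryptophan and niacin in all 4 matched pairs. The difference was small in 2KR against RR, at 1.06 against 1.21 FPKM. In 3K against 1K it was lower by only 1.09-fold, with both libraries under 1 FPKM. The median-of-ratios scaling factors of 3K and 1K lie further apart than that, so the direction of this pair depends on the scaling. At day 33 the order of the 4 diets was 1KR, RR, 2KR, 3KR for Ahrr and 1KR, RR, 3KR, 2KR for Cyp1a1.

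Tiparp, an ADP-ribosyltransferase that uses NAD, is induced by the receptor and promotes its breakdown (ENSMUSG00000034640, chromosome 3, 65528410 to 65555518, plus strand), differed little between libraries. It was at 22.2, 14.4 and 14.2 FPKM in 1K, 2K and 3K, against 16.2 FPKM in R. In 1KR, 2KR and 3KR it was at 17.5, 14.8 and 12.6 FPKM, against 16.3 FPKM in RR, and in C it was at 14.4 FPKM. The 1K and 1KR libraries were the highest of their day, as for Cyp1a1. Levels were lower with or after the deficiency in tryptophan and niacin in all 4 matched pairs. The size was small: the highest library was 1.76-fold above the lowest.

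Over pairs of libraries, a member was counted as apart where its log2(FPKM + 0.5) differed by at least 1 and it had at least 1 FPKM in either library. At that rule Cyp1a1 was higher in 1K than in R (log2 difference 1.55), where 5 of 7 members were above the floor and 15.8% of all genes were apart. It was higher in 1KR than in RR (2.60), where 6 members were above the floor and 5.99% of genes were apart, and ranked 117th from the top of 17070 genes. It was lower in 2KR than in RR (-1.63), with 6 members above the floor and 6.35% of genes apart, and ranked 299th from the bottom of 17035 genes. In each of these pairs it was the 1 member called. The pairs share R or RR as their control.

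Cyp1b1 was the 1 member apart between 3K and R (1.37), where 4 members were above the floor and 25.1% of all genes were apart. Between 2K and R, where 28.9% of genes were apart, none of the 4 members above the floor was. Cyp1a1, at 0.032 against 0.209 FPKM, fell under the floor there, and so it did in 3K against R. Between 3KR and RR, none of 6 members was apart, against 21.1% of genes. In 3K against 1K, with 29.9% of genes apart (15% higher and 14.9% lower) and 5 members above the floor, Cyp1a1 was lower (-1.90) and Cyp1b1 higher (2.28).

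Against the control without DSS, 0 of the 5 members above the floor were apart in R, where 7.65% of genes were (4.43% higher and 3.22% lower). In RR, Cyp1a1 was the 1 of 6 apart (1.13), with a background of 12.5% (6.71% higher and 5.81% lower). Between the normal-diet libraries of the 2 days it was again the 1 of 6, higher in RR than in R (1.38), with a background of 10.7% (5.42% higher and 5.29% lower). With a pseudocount of 1 these differences were 0.80 for RR against C and 0.95 for RR against R, short of 2-fold.

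Refed libraries were also set against their deficient counterparts. Cyp1a1 was higher in 1KR than in 1K (2.42) and the 1 of 6 members apart, with a background of 14.4% (6.57% higher and 7.79% lower). In 2KR, Ahrr was higher (1.16) and Cyp1b1 lower (-1.49) than in 2K among 5 members, with a background of 32.5% (13.5% higher and 19% lower). Ahrr was at 0.78 there with a pseudocount of 1. In 3KR, Cyp1b1 was lower than in 3K (-1.66) and the 1 of 4 apart, with a background of 25.1% (13.3% higher and 11.7% lower). With 1 or 2 members apart among 4 to 6, the shares are not far from the background where many genes differ.

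**Figure D3:**
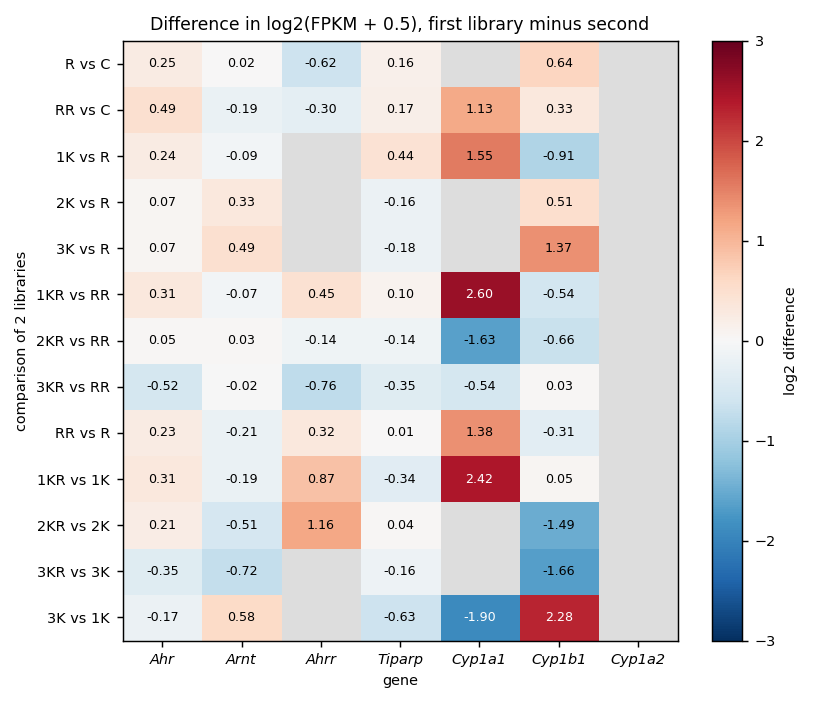
Difference in log2(FPKM + 0.5) of each member, first library minus second, in the 13 pairs of libraries; grey marks a member under 1 FPKM in both. Cyp1a1 reaches 2.60 in 1KR against RR and -1.90 in 3K against 1K, Cyp1b1 reaches 2.28 in 3K against 1K, and Ahr and Arnt stay within 1 of 0.

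A test of the diets was possible for the 8 DSS libraries taken as a factorial of day, methionine and tryptophan plus niacin, in which each diet term sets 2 libraries against 2 others of the same day. At day 33 a diet term stands for the diet up to day 28. The spread of each gene comes from the interaction between the diets, assumed to be 0, with 2 residual degrees of freedom. Limma then drew it towards a mean-variance trend over all genes in the fit, and the standard errors and p-values below use that moderated spread. The 5 members that averaged 1 FPKM or more entered the fit, and limma called none (0) of them for any of the 4 terms after Benjamini-Hochberg adjustment over 17577 genes. Of all genes, 33 (0.188%) were called for tryptophan and niacin at day 28, and 0 for each of the other 3 terms, where 563 (methionine, day 28), 218 (methionine, day 33) and 389 genes (tryptophan and niacin, day 33) had an unadjusted p under 0.05. Cyp1a1 had such an unadjusted p for both terms of day 33.

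For tryptophan and niacin, the fitted log2 difference of Cyp1a1 was -1.16 ± 0.68 at day 28 (SE; limma adjusted p = 0.407; between -0.41 and -1.90 with 1 library left out) and -2.38 ± 0.68 at day 33 (unadjusted p = 0.0211, limma adjusted p = 0.98). For methionine it was 0.81 ± 0.68 at day 28 and 1.84 ± 0.68 at day 33 (unadjusted p = 0.0481), with a limma adjusted p of 1 for each. Neither term differed between the days after adjustment (limma adjusted p of 0.706 for tryptophan and niacin and 1 for methionine). Cyp1b1 had 1.40 ± 0.57 for tryptophan and niacin at day 28 (limma adjusted p = 0.288) and -0.04 ± 0.57 at day 33. Ahr, Arnt and Tiparp had estimates between -0.40 and 0.46 in all 4 terms.

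**Figure D4:**
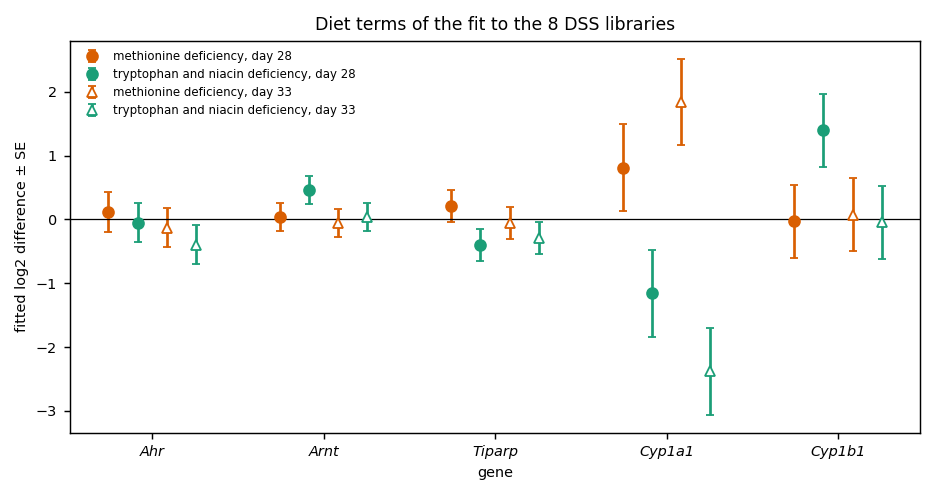
Fitted log2 difference, deficient minus other, with its standard error, for the 5 members in the fit to the 8 DSS libraries; circles are day 28, triangles day 33, orange methionine and green tryptophan plus niacin. Cyp1a1 has estimates of -1.16 and -2.38 for tryptophan and niacin and 0.81 and 1.84 for methionine, none past the adjusted threshold.

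The receptor's chaperones, coactivators and rivals for Arnt showed few 2-fold differences. Of these 10, 2 were higher by 2-fold or more and 0 lower in 3K than in R, with a median of 0.09 against 0.00 over all genes kept, of which 11.6% were higher and 13.4% lower. Those were Hif1a, the hypoxia factor that also pairs with Arnt, at 68.3 FPKM in 3K against 23.7 FPKM in R, and Epas1, its relative, at 51.1 against 19.6 FPKM. Epas1 was also higher in 2K, at 73.7 FPKM, and so was Arnt2, a neuronal relative of Arnt, at 3.71 against 1.33 FPKM in R. Hif1a was at 29.4 FPKM in RR, against 13.0 FPKM in C. Between 2KR or 3KR and RR, 0 of the 10 genes were 2-fold apart, against 6.35% and 21.1% of all genes. Arnt2 alone was apart between 1KR and RR, at 3.05 against 1.21 FPKM, where 5.99% of all genes were.

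Other known targets moved with Cyp1a1 in some pairs and not in others. Of 12 genes, 11 had at least 1 FPKM in 2K or R, and 8 were at least 2-fold higher and 0 lower in 2K (median 1.41, against 0.02 over all genes, of which 14.7% were higher and 14.1% lower). Aldh3a1, an aldehyde dehydrogenase abundant in mouse stomach, was at 211.8 FPKM in 2K and 0.062 FPKM in R, and Nqo1, a quinone reductase also driven by the oxidant sensor Nfe2l2, was at 86.3 against 10.7 FPKM. In 3K, without the liver and most of the stomach transcripts, Aldh3a1 was at 0.045 FPKM and Nqo1 at 7.63 FPKM. There 3 of 10 targets were higher and 0 lower (median -0.16), led by Gsta1, a glutathione transferase, at 3.56 FPKM in 3K against 0.141 FPKM in R, and Slc7a5, a transporter of tryptophan and other large amino acids, at 23.6 against 3.78 FPKM.

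At day 33 the same list had 0 of 10 genes 2-fold apart between 1KR and RR, where 2.47% of all genes were higher and 3.51% lower. Between 2KR and RR it had 1 higher, Gsta1, at 16.9 against 6.33 FPKM, and 0 lower, where 2.67% of all genes were higher and 3.67% lower. Between 3KR and RR it had 3 of 11 higher and 1 lower, where the background was 11.4% and 9.73%, with Ereg, an EGF receptor ligand, at 24.0 against 3.34 FPKM. In 1K against R, 2 of 10 were higher and 0 lower, against 7.17% and 8.63% of all genes.

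In 3K against 1K, where Cyp1a1 was 27.7-fold lower, 2 of 10 targets were higher and 5 lower (median -0.73), against 15% and 14.9% of all genes; with median-of-ratios scaling 3 were lower. Nfe2l2 was at 35.9 FPKM in 3K against 115.3 FPKM in 1K, and Slc7a5 went the other way, at 23.6 against 3.24 FPKM. In RR against C, where Cyp1a1 was 3.92-fold higher, 4 of 10 were higher and 0 lower (median 0.43), against 6.71% and 5.81% of all genes; with that scaling 2 were higher. Nqo1 was at 24.4 FPKM in RR against 9.01 FPKM in C.

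Enzymes that turn tryptophan into receptor ligands differed mainly in 2K. Of 10 kept, 7 were higher by 2-fold or more and 1 was lower in 2K than in R (median 1.69), against 14.7% and 14.1% of all genes. Tdo2, the hepatic tryptophan dioxygenase, was at 241.8 FPKM in 2K against 2.05 FPKM in R, Kmo, kynurenine monooxygenase, at 12.1 against 0.959 FPKM, and Aadat, an aminotransferase that makes kynurenic acid, at 10.3 against 0.158 FPKM, beside the liver transcripts of that library. In 3K, 0 of 9 were higher and 3 lower (median -0.22), against 11.6% and 13.4% of all genes. Ido1, the inducible dioxygenase of the gut and of immune cells, was at 0.733 FPKM in 3K against 5.21 FPKM in R, Kyat1, a further kynurenine aminotransferase, at 2.70 against 11.3 FPKM, and Kynu, kynureninase, at 0.62 against 2.34 FPKM.

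Ido1 shared the diet order of Cyp1a1 in part. It was at 2.40, 0.345 and 0.733 FPKM in 1K, 2K and 3K, against 5.21 FPKM in R, and at 9.58, 3.06 and 2.07 FPKM in 1KR, 2KR and 3KR, against 10.5 FPKM in RR. It was thus lower with or after the diet deficient in tryptophan and niacin in all 4 matched pairs. Unlike Cyp1a1, it was not higher in 1K than in R or in 1KR than in RR. Immune cell markers summed to 61.4, 157.4 and 185.9 FPKM in 1K, 2K and 3K, against 332.6 FPKM in R, and to 140.3, 191.9 and 264.8 FPKM in 1KR, 2KR and 3KR, against 224.6 FPKM in RR. Their part in the Ido1 levels was not tested. At day 33, Ido1 was the 1 gene of 9 in its list apart between 2KR and RR, where it was lower, against 3.67% of all genes lower. Between 3KR and RR, 1 of 9 was higher and 3 were lower, against 11.4% and 9.73% of all genes. Limma called 0 of the 10 partner genes, 0 of the 11 targets and 0 of the 10 ligand-forming enzymes that entered the fit, for any diet term.

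**Figure D5:**
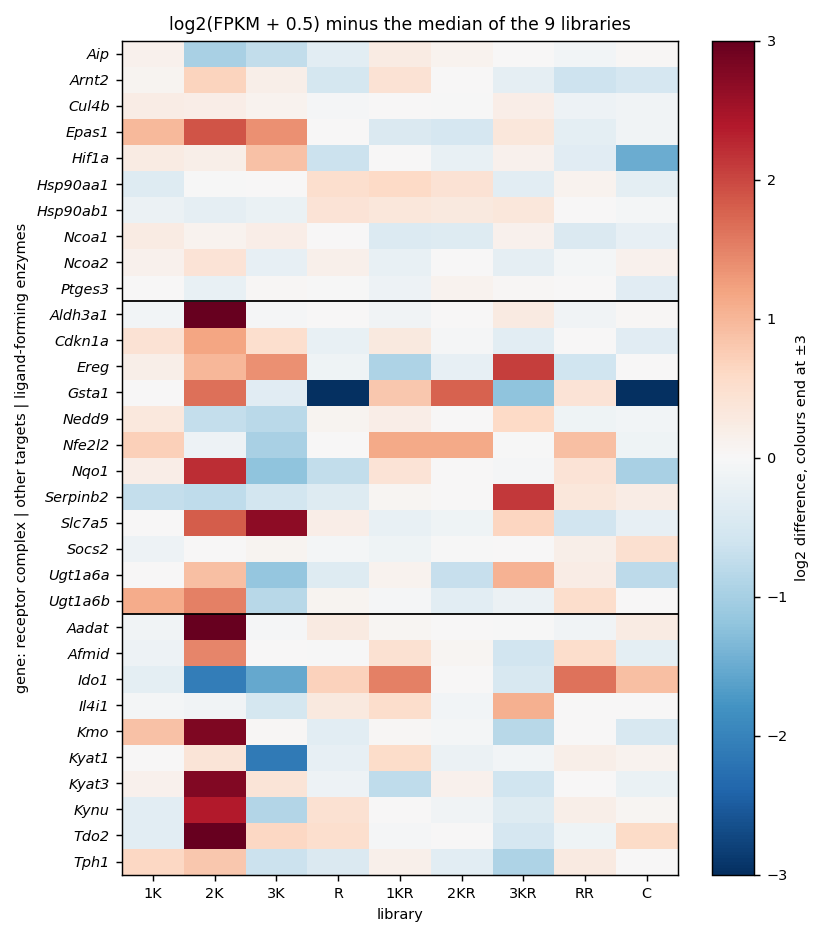
Log2(FPKM + 0.5) minus the gene's median over the 9 libraries for 32 genes of the pathway: 10 receptor partners, 12 other targets and 10 ligand-forming enzymes; colours end at ±3. The 2K column carries the highest values, among them Aldh3a1 at 211.8 FPKM and Tdo2 at 241.8 FPKM, and Ido1 is low in 2K and 3K.

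The genes most like each member were ranked by Pearson correlation of log2(FPKM + 0.5) over the 9 libraries, among up to 9451 genes that averaged 5 FPKM or more. The points share library and depth, and with 9 points high values are easily reached, so the values carry no p. For Arnt, 243 genes exceeded 0.9, led by Scaf8 and Rbm33 (0.99 each) and Iws1 (0.98). For Ahr, 114 did, led by Fez2 (0.99), Igsf23 (0.98) and Gzma, granzyme A of cytotoxic lymphocytes (0.96). Cyp1b1 was most like Sntb2 (0.97), Rgma (0.96) and Map3k3 (0.96), with 81 above 0.9, and Tiparp most like Man1a (0.97), Zc3h4 (0.96) and Arhgef26 (0.95), with 34. Ahrr was most like Ano9 (0.95), Rbm45 (0.94) and Col6a4 (0.93).

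No gene exceeded 0.9 with Cyp1a1, whose closest were Chmp1a (0.90), Alg14 (0.87) and the immunoglobulin segment Igkv5-39 (0.86), or with Cyp1a2, whose closest were Gfer (0.85), Chchd5 (0.84) and Hp1bp3 (0.84). Among the members, Cyp1a1 had a correlation of 0.59 with Ahr, 0.57 with Ahrr and 0.51 with Tiparp, and of -0.52 with Cyp1b1, -0.62 with Arnt and -0.13 with Cyp1a2. The highest value among members was that of Arnt and Cyp1b1, at 0.88.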

How the data were processed

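RNA was sequenced from mouse intestinal tract in 9 conditions, 1 library each. Per the labels' protocols, ISOGEN extracts were depleted of ribosomal RNA and made into stranded TruSeq libraries with no poly(A) purification step. The submitters' processing notes name HISAT2, Cuffdiff 2.2.1 and the build GRCm38. The authors deposited FPKM values, per the file headers. The annotation used and any scaling between libraries are not given in these sources, and no counts were used here.

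Values were compared as log2(FPKM + 0.5), which understates the change of genes near 0. For a pair of libraries a gene needed 1 FPKM or more in one of them. Fragments per library were estimated from the step between low FPKM values of genes with 1 annotated transcript of 1500 to 4000 bases (GENCODE M21), where 80.8% to 93.2% of values lay within 0.15 of a whole fragment. Fragments of Cyp1a1 and Cyp1a2 are approximate. limma 3.58.1 in R 4.3.3 was fitted with a mean-variance trend to genes averaging 1 FPKM or more over the 8 DSS libraries, with calls at an adjusted p under 0.05, and was tested on simulated data. Promoters and motifs rest on RefSeq sequences of GRCm38.p6.

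The members and lists were chosen with earlier results of these data known. There were 5 pathway lists and 11 marker lists, and 2 of their genes had no row by that symbol. Named were all members, up to 3 genes at least 2-fold apart per pathway list and comparison (with their levels in other libraries), sums and the most abundant genes of marker lists, and 3 genes of closest pattern per member, leaving out predicted genes and small RNAs. Pecam1, Cdh5, Emcn, Lct, Fabp6, Cubn, Arntl, Npas2, Pdgfra, Dcn, Pdgfrb, Cyp2e1 and Il22 were singled out after their values were seen. So were Ido1, Por and Cyp3a11 as genes given across libraries. Alternatives changed the pseudocount (1 or 0.1), the floor (none or 5 FPKM), the scaling (median of ratios, 7809 genes), the trend, the libraries in the fit (each left out in turn) and, for patterns, the correlation (Spearman) or the libraries (without 2K and 3K).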

Additional observations from a re-analysis of the deposited data

How the results depend on the processing

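The count of members at least 2-fold apart is a count of few genes and moved with the settings in some pairs. With a pseudocount of 1 it was 0 for RR against C, 0 for RR against R and 1 for 2KR against 2K. With a pseudocount of 0.1 it was 2 for 1K against R, 1 for 3KR against RR and 2 for 1KR against 1K. With no floor it was 1 for R against C, 2 for RR against C and 2 for 3KR against 3K. With a floor of 5 FPKM, under which Cyp1a1 stays only in pairs with 1KR, it was 0 for RR against C, 1K against R, 2KR against RR and RR against R, and 1 for 2KR against 2K and 3K against 1K. With median-of-ratios scaling it was 2 for 1K against R, where Cyp1b1 joined at -1.08; the median over all genes of that pair was then -0.16, against 0.03. The log2 difference of Cyp1a1 with a pseudocount of 0.1 was 2.44 for 1K against R, 2.22 for RR against R, -2.88 for 2KR against RR and -3.42 for 3K against 1K. Without 2K and 3K, the 3 genes of closest pattern to Cyp1b1 had correlations of 0.84, 0.79 and 0.73. No called member changed direction in any of these settings. The number of members called by limma was 0 in the 56 alternatives (range 0 to 0 with each library left out), but with 2 residual degrees of freedom the threshold is hard to pass, and this says nothing about stability. The Cyp1a1 estimates themselves moved: for methionine at day 28 (0.81) to 0.07 without 1K or R and 1.55 without 2K or 3K, for tryptophan and niacin at day 28 (-1.16) to -0.41 without 1K or 3K and -1.90 without 2K or R, for methionine at day 33 (1.84) to 1.09 without 1KR or RR and 2.60 without 2KR or 3KR, and for tryptophan and niacin at day 33 (-2.38) to -1.63 without 1KR or 3KR and -3.13 without 2KR or RR. With a pseudocount of 0.1 they were, in that order, 1.35, -2.32, 2.52 and -3.25, and with 1 they were 0.56, -0.76, 1.5 and -1.91. No paired analysis was possible because each condition has 1 library. Depth limits Cyp1a1 in 2K and 3K and Cyp1a2 throughout, with few fragments each.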

Other observations

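Por, the reductase that passes electrons to all microsomal P450 enzymes including Cyp1a1, was at 366.7, 590.2 and 300.8 FPKM in 1K, 2K and 3K, against 74.7 FPKM in R. In 1KR, 2KR and 3KR it was at 233.9, 169.6 and 131.5 FPKM, against 160.8 FPKM in RR, and in C it was at 45.8 FPKM. Cyp3a11, a target of the pregnane X receptor, was at 379.6, 254.1 and 115.3 FPKM in 1K, 2K and 3K, against 54.3 FPKM in R, and at 255.0, 130.6 and 39.8 FPKM in 1KR, 2KR and 3KR, against 722.1 FPKM in RR. Like Cyp1a1 it was higher in 1K than in R, and unlike Cyp1a1 it was lower in 1KR than in RR. Of 11 genes in the list of P450 enzymes and their support, 6 were at least 2-fold higher and 3 lower in 1K than in R, against 7.17% and 8.63% of all genes. In 1KR, 0 were higher and 2 lower than in RR, against 2.47% and 3.51% of all genes. Cyp2s1, a P450 that is also known as a target of the aryl hydrocarbon receptor, was at 54.6 FPKM in 2K and 6.59 FPKM in 3K, against 24.4 FPKM in R.

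Immune genes known to depend on the receptor were mostly too low to compare. Of 11 measured genes, 3 had at least 1 FPKM in R or C. Il22, the cytokine of innate lymphocytes that the receptor promotes, was listed at 0 in R, 1KR, 2KR, 3KR, RR and C and was at most 0.086 FPKM (2K). Cd160, a receptor of intraepithelial lymphocytes, was at 0.502 FPKM in 2K and 0.455 FPKM in 3K, against 1.56 FPKM in R, and at 0.793 FPKM in 3KR, against 3.00 FPKM in RR.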
